A study of Arabidopsis thaliana with 9 samples.

Results

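The transcript levels of wild-type Arabidopsis thaliana seedlings (WT, ecotype Col-0) grown in red light were described from 3 libraries, which are every WT library among the 9 of the series. They were chosen by their genotype label alone. The material was the whole seedling at an age of 4 days. After 2 days of stratification at 4 °C the seeds received white light of 90 µmol m-2 s-1 for 2 h and then stayed dark for 22 h, and the seedlings stood under red light of 80 µmol m-2 s-1 for the last 3 days, at 22 °C and on a medium free of sucrose. Polyadenylated RNA was enriched with oligo(dT) beads and sequenced on the BGISEQ-500 platform. The labels do not say whether WT 1, WT 2 and WT 3 were separate cultures, so the spread between them may be technical.

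The WT libraries held 21984448, 21577036 and 22393299 expected counts, which are read counts that RSEM divides among genes. Levels are given as FPKM, fragments per kilobase of transcript per 1e6 fragments, a unit that corrects for gene length and so allows genes to be set side by side. The 3 values given for a gene are those of WT 1, WT 2 and WT 3 in that order, and means are given ± SD (n = 3). A gene missing from a file counts as 0, and the lowest listed value was 0.01 FPKM. No pair of libraries agreed within counting noise. The squared difference between 2 of them averaged 6.02 to 10.4 times its counting variance over genes of at least 10 FPKM. The median was 1.41 to 2.03 times. Counting alone gives a mean of about 1 and a median well below 1, so these medians are not to be set against 1. Where the level of 1 gene is set above another, this holds in each of the 3 libraries unless stated, and values that overlap are said to do so. An exact sign test over 3 libraries cannot give a two-sided p below 0.25, and no p-value is given. In whole seedlings, many cells with little of a transcript and few cells with much of it cannot be told apart.

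A seedling that emerges into light builds chloroplasts. Phytochromes, the receptors for red and far-red light, then act against the COP1/SPA ubiquitin ligases and the PIF transcription factors, and HY5 with its B-box partners activates genes for pigments and photosynthesis. Antenna proteins hold the chlorophyll that collects light, the photosystems use that energy to move electrons through plastocyanin and ferredoxin, and Rubisco fixes carbon dioxide in the Calvin cycle. The small subunit of Rubisco and nearly all antenna proteins are encoded in the nucleus, in families of closely related genes.

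The 250 bases before the annotated starts of the 4 Rubisco small-subunit genes and of LHCB1.3 are shown because these genes held 5 of the 5 highest levels. They are read 5′ to 3′ on the gene's own strand from RefSeq's TAIR10.1 assembly. Capitals mark the G-box CACGTG, the I-box GATAAG and the TATA box TATAAA wherever these letters occur on either strand.
RBCS1A (chr1:25049668-25049917, minus strand): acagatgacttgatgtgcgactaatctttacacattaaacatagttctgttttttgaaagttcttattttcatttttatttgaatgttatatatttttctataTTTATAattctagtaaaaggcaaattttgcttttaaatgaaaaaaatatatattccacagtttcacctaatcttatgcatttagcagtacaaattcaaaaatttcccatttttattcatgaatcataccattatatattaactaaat
RBCS3B (chr5:15378643-15378892, minus strand): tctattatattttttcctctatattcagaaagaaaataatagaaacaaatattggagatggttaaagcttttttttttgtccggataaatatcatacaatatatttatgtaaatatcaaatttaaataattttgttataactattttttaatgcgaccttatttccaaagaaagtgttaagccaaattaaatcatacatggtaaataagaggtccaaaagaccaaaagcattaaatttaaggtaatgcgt
RBCS2B (chr5:15382072-15382321, minus strand): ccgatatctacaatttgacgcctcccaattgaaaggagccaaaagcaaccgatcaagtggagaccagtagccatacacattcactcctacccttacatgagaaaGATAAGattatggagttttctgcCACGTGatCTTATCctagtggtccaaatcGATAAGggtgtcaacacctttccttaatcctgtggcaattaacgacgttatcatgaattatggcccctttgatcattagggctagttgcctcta
RBCS1B (chr5:15385321-15385570, minus strand): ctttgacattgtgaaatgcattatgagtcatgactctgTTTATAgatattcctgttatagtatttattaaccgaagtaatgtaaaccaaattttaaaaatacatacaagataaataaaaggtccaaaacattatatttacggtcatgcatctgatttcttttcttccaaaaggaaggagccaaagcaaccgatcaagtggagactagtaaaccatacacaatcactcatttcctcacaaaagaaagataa
LHCB1.3 (chr1:10477635-10477884, plus strand): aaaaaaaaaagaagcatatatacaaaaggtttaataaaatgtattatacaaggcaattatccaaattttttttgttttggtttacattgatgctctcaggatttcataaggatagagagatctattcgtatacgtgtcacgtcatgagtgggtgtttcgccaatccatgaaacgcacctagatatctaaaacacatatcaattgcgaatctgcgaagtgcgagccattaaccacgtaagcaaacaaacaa

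RBCS2B carried a G-box that begins 123 bases before the start, with I-boxes at 146, 115 and 94 bases. RBCS1A had the TATA letters 147 bases before the start and RBCS1B had them 212 bases before it, in both on the opposite strand. The windows of RBCS3B and LHCB1.3 held none of these letters, and none of the 3 motifs was present in the windows of all 4 small-subunit genes. Each window ends at the outermost annotated start of its gene. Letters inside the gene or farther upstream were not searched, so a motif missing from a window may lie nearby. The G-box stood in 12 of the 61 windows of light-reaction and Rubisco genes (19.7%) and in 1780 of the 27437 windows of all protein-coding nuclear genes (6.49%). The I-box stood in 16 of the 61 (26.2%) and in 12.3% of all windows. The TATA letters stood in 26 of the 61 (42.6%) and in 47.4% of all windows. A match describes letters and is no evidence of binding.

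Of the 23784 genes listed in at least 1 WT file, 22040 were listed in all 3. The mean level reached 1 FPKM for 19087 genes, 10 FPKM for 10367, 100 FPKM for 1045 and 1000 FPKM for 59, and the median over listed genes was 7.82 FPKM. Transcripts were unequally divided. The most abundant gene made 2.4 ± 0.226% of the summed FPKM, the top 10 made 9.0 ± 0.33%, the top 100 made 25.6 ± 0.482% and the top 1000 made 54.1 ± 0.601%. The 763 most abundant genes together made 50% of the sum. The plot of level against rank places known genes on this scale.

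**Figure D1:**
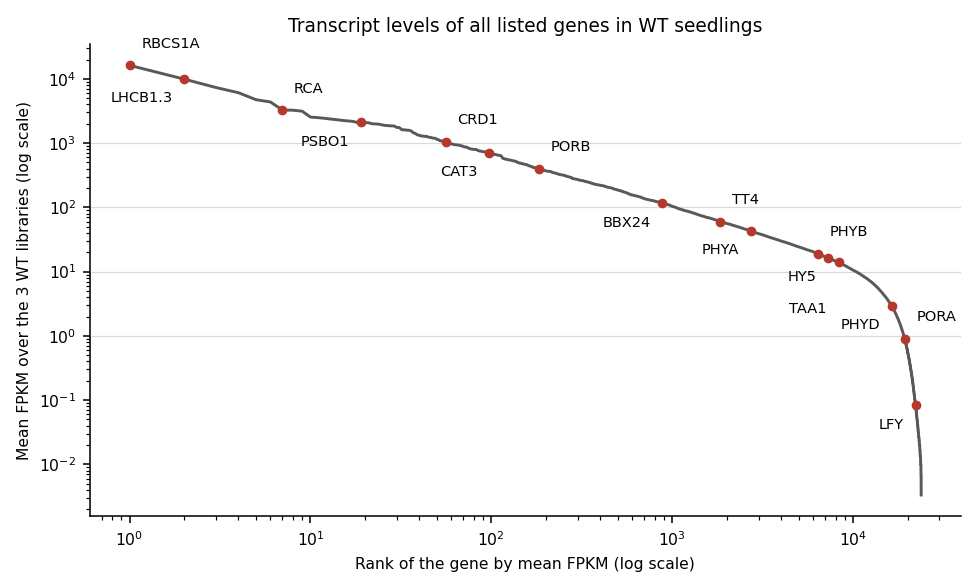
Mean FPKM over the 3 WT libraries against the rank of the gene, both on log scales, for all 23784 listed genes, with 16 genes marked. The curve passes from RBCS1A at 16247 FPKM through PHYA at 42.8 FPKM to LFY at 0.0833 FPKM, and it drops steeply below about 1 FPKM.

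Genes of photosynthesis filled the top of the ranking. The 61 genes listed for antennae, photosystems, electron carriers and Rubisco made 17.2 ± 0.481% of the summed FPKM (16.7, 17.5 and 17.4%). They held 8 of the 10, 31 of the 40 and 42 of the 100 highest places. The order was stable at the top, where 9 genes stood in the first 10 places of every library and 46 stood in the first 50.

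RBCS1A (AT1G67090; chromosome 1, 25048158 to 25049667, minus strand), which encodes a small subunit of Rubisco, ranked highest with 14684, 17941 and 16117 FPKM. The other small-subunit genes lie close together, RBCS3B at chromosome 5, 15376988 to 15378642, minus strand, RBCS2B at chromosome 5, 15380907 to 15382071, minus strand, and RBCS1B at chromosome 5, 15383167 to 15385320, minus strand. RBCS3B had 7152, 7954 and 6926 FPKM, RBCS2B had 5928, 6708 and 5640.1 FPKM and RBCS1B had 4482, 5376 and 4374 FPKM. RBCS1A thus gave 47.2 ± 1.61% of the family's FPKM, RBCS3B gave 21.4 ± 0.711%, RBCS2B gave 17.7 ± 0.662% and RBCS1B gave 13.8 ± 0.477%, in the same order in all 3 libraries. All 4 were highest in WT 2. Words of 50 bases shared with another gene made 21.4% of RBCS2B and 1.42% of RBCS1A, so the split among the chromosome 5 copies depends more on how reads were divided. RCA, the activase that frees Rubisco of its inhibitors, had 3195, 3272 and 3369 FPKM and was highest in WT 3, at 0.203 ± 0.0183 times RBCS1A.

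LHCB1.3 (AT1G29930; chromosome 1, 10477885 to 10479114, plus strand), a gene for the main antenna protein of photosystem II, was next with 10058, 9498 and 10239 FPKM, without overlap with RBCS1A above or RBCS3B below. It gave 49.6 ± 1.04% of the LHCB1 family. LHCB1.5 (4265, 4282 and 4594 FPKM) gave 21.9 ± 0.437%. LHCB1.4 (2267, 1861 and 2212), LHCB1.2 (1828, 1976 and 2168) and LHCB1.1 (1436, 1545 and 1861 FPKM) followed, each overlapping its neighbour. These genes stand in 2 groups, 3 on chromosome 1 and 2 on chromosome 2. Of their words 10.7 to 22.3% occur in another gene model, most often in a neighbour of the group. In the LHCB2 family LHCB2.2 led with 45.4%. LHCB4.1 gave 64.2% of the LHCB4 family and LHCB4.3 gave 0.438 ± 0.06505%, with 7.81, 10.3 and 7.2 FPKM.

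The antenna of photosystem I was led by LHCA1 (2237, 2325 and 2534 FPKM) and LHCA4 (2096, 1947 and 2227 FPKM), which pair in its outer belt. LHCA2 (1268, 1276 and 1319) and LHCA3 (1214, 1271 and 1331 FPKM), the other pair, overlapped each other. LHCA5 and LHCA6, which link the photosystem to the NDH complex, averaged 102 and 91.1 FPKM. Of the 20 antenna genes 13 exceeded 1000 FPKM, and together they made 5.38 ± 0.261% of the summed FPKM. Of the 19 above 10 FPKM, 14 were highest in WT 3, where 27.2% of all genes above 10 FPKM were highest.

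The 24 photosystem genes made 5.11 ± 0.0918%, and 18 of them exceeded 1000 FPKM. PSBR, a subunit near the oxygen-evolving complex of photosystem II, was highest with 3381, 3197 and 3185 FPKM. The oxygen-evolving proteins were represented by PSBP-1 (2225, 2291 and 2253 FPKM), PSBO1 (2061, 2095 and 2161 FPKM) and PSBQ-1 (1048, 1109.8 and 1103 FPKM). Their paralogues differed widely. PSBP-2 was at 1.23, 1.58 and 1.74 FPKM, or 0.0671 ± 0.0111% of its family, whereas PSBO2 gave 23.7 ± 0.219% and PSBQ-2 gave 44.5 ± 0.775%. In photosystem I, PSAD-1 on the ferredoxin side led with 2109, 2088 and 2475 FPKM, and PSAD-1 exceeded PSAD-2 by 2.05 ± 0.0702 times. Further subunits from PSAO to PSAL stood between 1763 and 2008 FPKM and are drawn in the plot of the top 40.

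**Figure D2:**
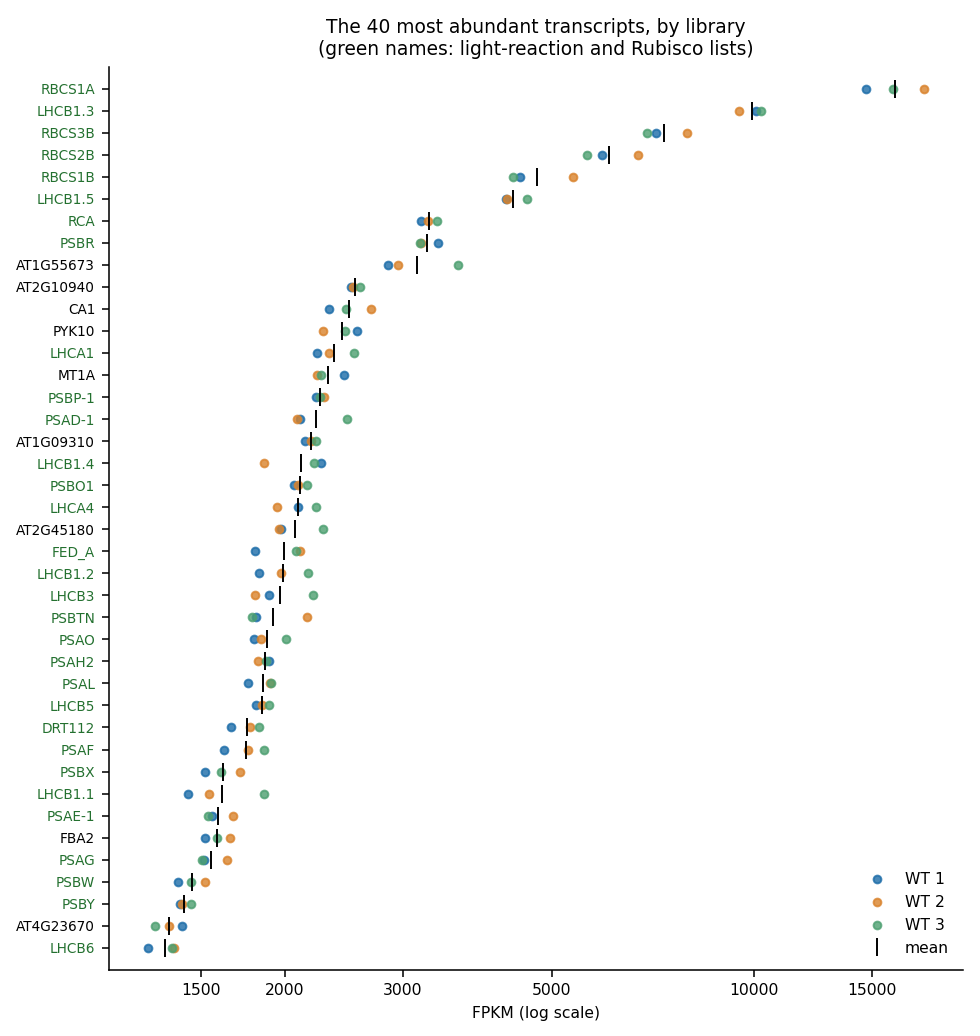
FPKM on a log axis in WT 1 (blue), WT 2 (orange) and WT 3 (green) for the 40 genes of highest mean, with the mean as a bar and names of light-reaction and Rubisco genes in green. RBCS1A lies between 14684 and 17941 FPKM and LHCB6, at place 40, between 1249.6 and 1366 FPKM.

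Among the electron carriers, plastocyanin came mainly from DRT112 (PETE2), with 1663, 1773 and 1833 FPKM and 90.3 ± 0.474% of the pair, and little from PETE1 (189, 189 and 187 FPKM). Leaf ferredoxin came mainly from FED_A (1807, 2104 and 2076 FPKM), which gave 83.9 ± 0.291% beside FD1. FNR1 and FNR2, the reductases that pass electrons on to NADP, were nearer, at 1.13 ± 0.0356 to 1. PGRL1A, which serves cyclic electron flow with PGR5, gave 88.6 ± 1.01% of its pair.

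Outside those lists 9 genes reached the top 40. CA1, the chloroplast carbonic anhydrase, had 2327, 2689.9 and 2466 FPKM, and FBA2, a Calvin cycle aldolase, had 1520.1, 1656 and 1585 FPKM. PYK10, the beta-glucosidase of the ER bodies of roots and hypocotyls, had 2559, 2283 and 2458 FPKM. AT2G10940 (2511, 2531 and 2586 FPKM) and AT2G45180 (1978, 1960.5 and 2277 FPKM) are annotated as lipid-transfer-like proteins, a class whose 82 listed genes made 1.154 ± 0.0324% of the summed FPKM. AT1G09310 (2146, 2192 and 2223 FPKM) is annotated with a domain of unknown function, and AT4G23670 (1404, 1344 and 1283 FPKM) as a polyketide cyclase-like protein.

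The remaining 2 of the 9 lie within other gene models. AT1G55673, an uncharacterized model at 2851, 2952 and 3627 FPKM, lies inside PSAG on the opposite strand, and the libraries are not stated to keep strand. Its expected counts were fractional, but those of AT1G55673 and PSAG together were whole numbers in 3 of 3 libraries (53804, 55893 and 62562), of which AT1G55673 took 52.9, 51.7 and 58.9%. PSAG alone stood at 1514, 1640.3 and 1506 FPKM. MT1A, a metallothionein, had 2453, 2236 and 2265 FPKM on a model of 138 bases that lies within AT1G07590 on the same strand, and 100% of its words occur there too. Its counts and those of AT1G07590 together were whole in 0 of 3 libraries. Its level is therefore uncertain. MT2B, the next metallothionein, had 931, 1009.7 and 866 FPKM.

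The 15 Calvin cycle genes, carbonic anhydrases included, had a median of 724 FPKM and made 1.67 ± 0.0651% of the sum. PRK, which makes the carbon acceptor, had 719, 737 and 733 FPKM, and SBPASE, which serves its regeneration, had 529.5, 569 and 559 FPKM. GAPA (746, 775 and 732) and GAPA-2 (710.1, 757 and 706 FPKM), copies of a subunit of the reducing enzyme, overlapped. CP12-3 (9.91, 9.17 and 10.4 FPKM) was far below the linker genes CP12-1 (449.7 FPKM) and CP12-2 (229 FPKM). Photorespiration recycles the product of Rubisco's reaction with oxygen, and its 9 listed genes had a median of 579 FPKM. GOX1, a glycolate oxidase, led them with 975, 1102 and 939.6 FPKM, followed by the aminotransferase gene GGT1 (822, 783 and 797 FPKM) and the serine hydroxymethyltransferase gene SHM1 (764, 801 and 720.0 FPKM).

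The 20 chlorophyll genes had a median of 78.7 FPKM, and 17 exceeded 10 FPKM. CRD1, a cyclase subunit that forms the fifth ring of chlorophyll, was highest with 1019, 1003 and 1149 FPKM. HEMA1, the glutamyl-tRNA reductase at the entry of the pathway, had 117, 107 and 123 FPKM and exceeded HEMA2 by 12.6 ± 1.201 times. Magnesium is inserted by a chelatase of 3 kinds of subunit. CHLI1 had 333, 323 and 353 FPKM, or 8.67 ± 0.259 times CHLI2, GUN5 (the H subunit) had 252, 253 and 282 FPKM and ALB1 (the D subunit) had 72.2, 69.8 and 76.8 FPKM. CHLM, which methylates the product, had 225, 227 and 221 FPKM.

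The protochlorophyllide reductases, which need light to act, differed widely among themselves. PORB had 411, 392 and 400.2 FPKM and 73.3 ± 1.41% of the family, and PORC had 139, 153 and 142 FPKM and 26.5 ± 1.43%. PORA, the form abundant in dark-grown seedlings, had 0.83, 0.7 and 1.19 FPKM, 0.166 ± 0.0472% of the family. CAO, which makes chlorophyll b, had 106, 102 and 117 FPKM, NYC1, which reduces it again, had 80.1, 78.1 and 72.3 FPKM, and SGR1, a gene of chlorophyll breakdown, had 10.3, 8.85 and 10.6 FPKM. Chlorophyll synthesis genes thus spanned levels from 1057 FPKM (CRD1) to 0.907 FPKM (PORA).

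All 14 carotenoid genes exceeded 10 FPKM, with a median of 39.1 FPKM. PSY, phytoene synthase at the head of the pathway, was highest and hardly varied, with 179.9, 181 and 181 FPKM. The later desaturases ZDS (60.5, 59.4 and 61.05 FPKM) and PDS3 (36.4, 35.5 and 36.3 FPKM) were lower. The branch enzymes LUT2 (41.3, 42.6 and 38.6) and LYC (41.6, 39.03 and 40.7 FPKM), which lead to lutein and to beta-carotene, overlapped. CCD1, a dioxygenase that cleaves carotenoids, exceeded CCD4, with 109, 105 and 105 FPKM against 14.96, 14.9 and 15.5 FPKM.

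The phytochromes were ordered PHYA (45.6, 39.8 and 42.9 FPKM), PHYB (18.3, 19.9 and 18.6 FPKM), PHYC (10.6, 10.1 and 9.37 FPKM), PHYE (9.73, 10.6 and 9.18 FPKM) and PHYD (2.8, 2.94 and 3.09 FPKM). PHYC and PHYE overlapped, and the other neighbours did not. PHYA, the light-labile receptor best known from far-red light, gave 50.6 ± 2.496% of the phytochrome FPKM. PHYB, the main receptor of red light in seedlings, gave 22.4 ± 1.44%, and was at 0.445 ± 0.0509 times PHYA. FHY1 (11.1, 9.43 and 8.94 FPKM) exceeded FHL (3.58, 3.7 and 3.66 FPKM), which like FHY1 carries phytochrome A into the nucleus, and their activators FHY3 and FAR1 averaged 19.9 and 9.81 FPKM.

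The main receptors of blue light stood higher. The phototropin genes PHOT2 (90.2, 89.5 and 86.6) and PHOT1 (90.1, 77.5 and 87.9 FPKM) overlapped each other, as did the cryptochrome genes CRY2 (58.8, 53.9 and 54.2) and CRY1 (56.04, 52.2 and 50.9 FPKM). Each of these 4 exceeded PHYA. Of PHOT2's words, 36.9% are shared with another gene model. UVR8, the UV-B receptor, had 41.9, 39.4 and 42.6 FPKM and overlapped PHYA.

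In the repressor complex, COP1, the ubiquitin ligase that targets HY5, had 17.1, 17.1 and 16.4 FPKM. Its partners followed the order SPA1 (27.4, 27.6 and 27.2 FPKM), SPA3 (23.7, 24.7 and 23.6 FPKM), SPA2 (9.04, 9.55 and 9.31 FPKM) and SPA4 (8.29, 8.72 and 7.98 FPKM). SPA1 and SPA3 gave 39.7% and 34.8% of the SPA sum. DET1, part of a related complex, had 29, 28.1 and 25.9 FPKM.

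All 5 PIF genes, whose products phytochromes bind and restrain in red light, exceeded 10 FPKM. PIF5 (48.2, 44.7 and 50.1 FPKM) stood above PIF4 (40.5, 37.7 and 42.4 FPKM), PIF1 (31.96, 29.3 and 30.4 FPKM), PIF7 (19.1, 20.03 and 20.3 FPKM) and PIF3 (13.9, 12 and 15.2 FPKM), with no overlap between neighbours. HFR1, PAR1 and PAR2, which bind PIFs and keep them from DNA, averaged between 4.98 and 5.82 FPKM, and PIL1, a gene known to be induced by shade, had 2.18, 2.03 and 1.97 FPKM.

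HYH, the closest relative of HY5, exceeded it: HYH had 34.1, 40.1 and 37.8 FPKM and HY5 (AT5G11260) had 15.2, 15.96 and 17.7 FPKM, a ratio of 2.297 ± 0.195. GBF1, another bZIP factor that binds the G-box, was higher than both with 45.9, 42.7 and 46.3 FPKM. Among HY5's B-box partners BBX21 had 66.9, 58.3 and 68.1 FPKM, BBX22 had 19.8, 19.6 and 19.3 FPKM and BBX20 had 3.59, 3.07 and 3.08 FPKM, or 73.8 ± 1.66%, 22.5 ± 1.52% and 3.72 ± 0.291% of the 3. BBX24, a B-box protein known to oppose HY5, had 118, 105 and 123 FPKM and stood above BBX21. In the CONSTANS family COL4 led with 223, 213 and 228 FPKM, and CO itself, the activator of flowering, was at 2.58, 2.56 and 2.54 FPKM, 0.5903 ± 0.0255% of the family. BBX23 was listed in no WT file.

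GLK1 (76.1, 81.3 and 73.04) and GLK2 (77.7, 76.8 and 80.98 FPKM), paired activators of chloroplast genes, overlapped, GLK2 being higher in 2 of 3 libraries. GNC, a GATA factor of greening, exceeded its relative CGA1 by 3.01 ± 0.129 times. The sigma factors, which direct the plastid's own RNA polymerase, were ordered SIG2 (73.7, 75.4 and 70.6 FPKM), SIG1 (66.8, 60.1 and 63.8 FPKM) and SIG6 (52.6, 50.7 and 46.4 FPKM), with SIG5, known to respond to blue light and stress, lowest at 12.5, 12.3 and 13.1 FPKM. The plot of family shares sets these divisions side by side with those of the enzymes.

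**Figure D3:**
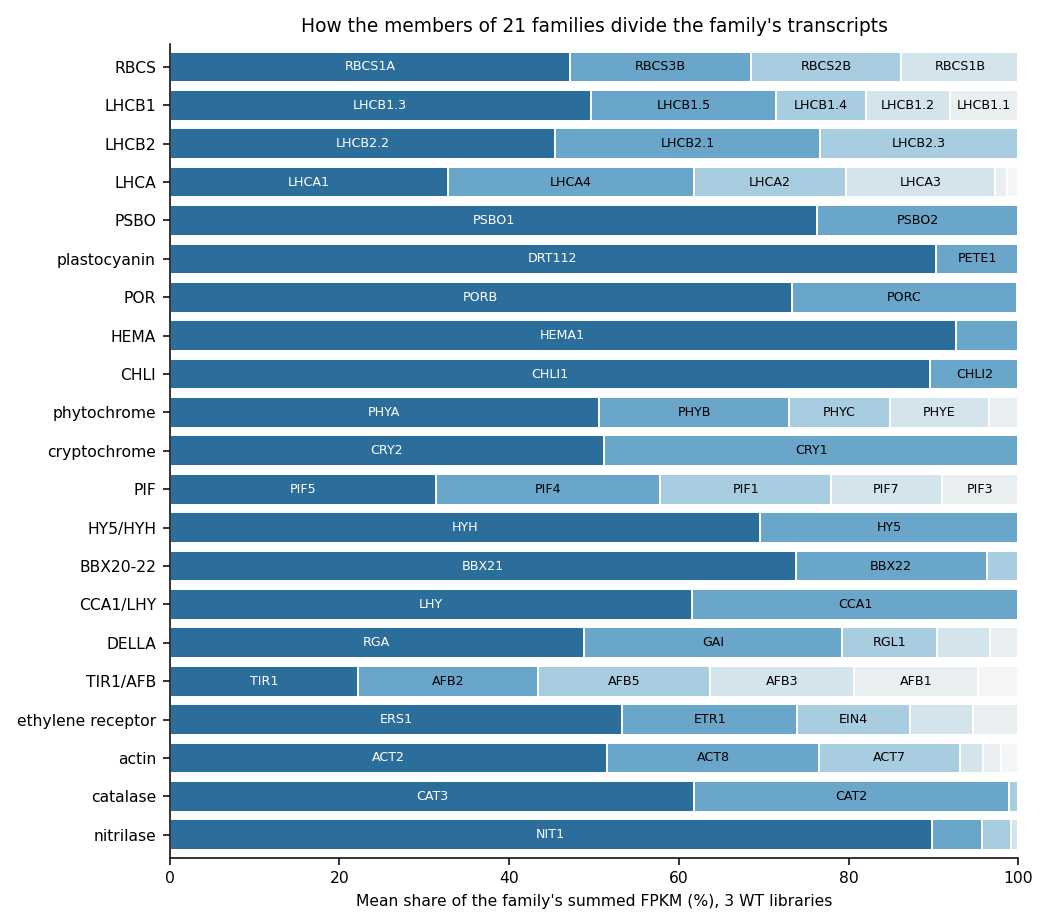
Mean share of each member in its family's summed FPKM (%, 3 WT libraries) for 21 families, with members from left to right by level. RBCS1A and LHCB1.3 hold close to 50% of their families, DRT112 and HEMA1 over 90%, and CRY2 and CRY1 divide theirs at 51.2 and 48.8%.

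Over 77 families compared in this way, the highest member exceeded the next in 3 of 3 libraries in 74, without overlap in 70. It held at least 50% of the family's FPKM in 59 and at least 90% in 5, namely PSBP, plastocyanin, HEMA, the brassinosteroid receptors of the BRI1 group and the myrosinases TGG. In a family of 2 genes the higher one holds at least 50% by arithmetic. For such pairs, among them GLK2 at 50.6%, the count of 59 does not show that 1 copy dominates.

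All 19 clock genes exceeded 1 FPKM. Among the morning genes, LHY had 63.99, 62.3 and 70.7 FPKM and CCA1 had 39.6, 38.9 and 44.5 FPKM, a ratio of 1.603 ± 0.0138 that hardly varied. RVE2, a relative of theirs, was the highest of the list with 139, 122 and 107 FPKM. TOC1, an evening gene, had 33.7, 30.2 and 28.6 FPKM, and the evening genes ELF3, ELF4 and LUX averaged 34.9, 29.4 and 22.7 FPKM. PRR9, which peaks soon after dawn, was lowest with 1.54, 1.44 and 1.35 FPKM, and GI had 11.01, 11.2 and 9.69 FPKM. The time of harvest is not given in the sources used here, and 1 time point holds no rhythm.

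The shared phenylpropanoid enzymes were led by C4H (113, 116 and 108 FPKM), 4CL1 (99.8, 105 and 103 FPKM) and PAL1 (78.4, 82.8 and 75.7 FPKM). PAL1 gave 54.2% of the PAL family and 4CL1 gave 75.6% of the 4CL family. Flavonoid synthesis opens with chalcone synthase, TT4, at 55.3, 73.7 and 51.7 FPKM. It was highest in WT 2, as were all 6 flavonoid genes above 10 FPKM. The next steps TT5 (20.1, 22.4 and 20.2 FPKM) and F3H (18.9, 25.8 and 17.5 FPKM) were lower, and of the diverging branches, the flavonol enzyme FLS1 (13.2, 20.6 and 14.3 FPKM) exceeded the anthocyanin enzyme DFR (4.31, 7.01 and 4.46 FPKM) by 3.07 ± 0.135 times. Of the 13 regulators, the repressor MYBL2 (10.6, 8.75 and 12.1 FPKM) and TTG1 (20.4, 18.2 and 19.6 FPKM), a partner of MYB and bHLH factors, exceeded 10 FPKM. The anthocyanin activators MYB75 (2.15, 2.91 and 2.68 FPKM) and MYB90 (0.51, 0.8 and 0.27 FPKM) were lower, and MYB113 and MYB114 were listed in no WT file.

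Genes of light stress were low apart from the one-helix proteins OHP2 (136, 150.0 and 147 FPKM) and OHP1 (121, 131 and 125 FPKM), which serve photosystem assembly. The early light-inducible proteins ELIP1 (2.53, 3.53 and 3.1 FPKM) and ELIP2 (4.17, 4.66 and 3.69 FPKM), which bind pigments under strong light, stayed below the median of all listed genes.

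Of the auxin genes, 5 of 6 receptor genes stood above 10 FPKM and 1 of 13 synthesis genes did. Over all 23784 listed genes, 10367 reached that level. The receptors TIR1 (31.8, 31.6 and 30.1) and AFB2 (31.8, 30.9 and 27.1 FPKM) overlapped, and AFB4 was lowest with 6.73, 6.27 and 6.83 FPKM. TAA1, which makes the precursor of auxin, had 14.2, 14.02 and 13.5 FPKM. Of 11 YUCCA genes, whose enzymes finish the synthesis, the highest were YUC8 (4.1, 4.15 and 4.52 FPKM) and YUC6 (4.38, 3.94 and 4.17 FPKM), and YUC10 and YUC11 were listed in no WT file. Among exporters PIN7 (74.8, 66.6 and 76.3 FPKM) and PIN3 (68.9, 61.9 and 69.9 FPKM) led. Of the 27 Aux/IAA repressors 25 reached 1 FPKM, and their median was 15.2 FPKM. IAA7 was highest with 238, 204 and 222 FPKM, and IAA29, known to rise in shade, had 7.29, 4.36 and 5.92 FPKM.

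Of the gibberellin genes, the 20 oxidases had a median of 0.895 FPKM, the median of all listed genes being 7.82 FPKM, 10 of them reached 1 FPKM and 2 reached 10 FPKM, KAO2 being highest with 13.7, 12.9 and 13.8 FPKM. GA3OX1, which makes the active hormone, had 5.53, 6.48 and 6.48 FPKM and GA20OX1 had 2.48, 2.9 and 2.83 FPKM. The DELLA repressors were ordered RGA (34.8, 33.95 and 29.6 FPKM), GAI (19.9, 21.3 and 19.9 FPKM), RGL1 (7.92, 7.98 and 6.62 FPKM), RGL2 (4.34, 4.5 and 3.78 FPKM) and RGL3 (2.44, 2.22 and 2.1 FPKM), without overlap. GID1A gave 48.6% of the receptor sum, at 13.4, 12.7 and 12.02 FPKM.

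Brassinosteroid synthesis was led by DWF1 (255, 237 and 241 FPKM) and CPD (61.7, 55.6 and 61.8 FPKM), while DWF4, the rate-limiting step, had 15.5, 15.04 and 15.4 FPKM. The receptor BRI1 (43.6, 42.96 and 43.8 FPKM) exceeded its relative BRL3 by 16.5 ± 1.08 times. BES1 (216, 189 and 221 FPKM), 30.9% of whose words occur in another gene model as well, exceeded its partner BZR1 (27.2, 22.9 and 25.9 FPKM).

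For cytokinin, the receptor AHK3 (28.9, 27.8 and 28.6 FPKM) gave 58.2% of the receptor sum, with AHK2 (10.98, 10.8 and 9.96) and WOL, also called AHK4 (9.77, 10.2 and 9.55 FPKM), overlapping below it. ARR4, a type-A response regulator that binds phytochrome B, led its family with 65.7, 68.3 and 53.1 FPKM and 35.9 ± 2.08% of it. Among ethylene receptors ERS1 (32.5, 31.9 and 30.7 FPKM) gave 53.3 ± 0.707% and ETR1 (12.8, 12.4 and 11.5 FPKM) gave 20.6 ± 0.697%. The transcription factors of the pathway were EIN3 (62.6, 52.1 and 63.1 FPKM) and EIL1 (47.2, 39.1 and 43.7 FPKM). ACS6, the highest of 6 ACS genes for the precursor of ethylene, had 6.12, 5.62 and 5.77 FPKM.

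For abscisic acid, PYL4 (113, 118 and 123 FPKM) led 9 receptor genes with 40.3 ± 1.29%, and RAB18, a dehydrin gene known to respond to the hormone, was highest of all 27 with 176, 157 and 199.8 FPKM. NCED3, of the step that limits synthesis, had 2.72, 2.55 and 2.75 FPKM. In the jasmonate list LOX2 (115, 143 and 112 FPKM), AOS (62.95, 74.2 and 59.3 FPKM) and AOC2 (61.3, 72.4 and 57.4 FPKM), the early synthesis enzymes, led. MYC2 gave 17.3% of its family, but 98.5% of its words occur in another gene model. The karrikin receptor KAI2 (30.1, 30.6 and 28.8 FPKM) exceeded the strigolactone receptor D14 (19.9, 20.3 and 18.7 FPKM), and strigolactone synthesis was low, with MAX4 at 1.13, 0.84 and 0.72 FPKM and MAX3 at 0.07, 0.07 and 0 FPKM.

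The organ and cell type markers were read next, as a check of the label whole seedling. Of all 23784 listed genes, 19087 reached 1 FPKM and 10367 reached 10 FPKM, the background for the counts of markers. The mesophyll markers RBCS1A and CA1 stood in the top ranks. Of 7 epidermal genes 6 reached 10 FPKM, with ATML1, a factor of the outer cell layer, at 47.5, 44.8 and 45.7 FPKM and CER6, a wax gene, at 213, 193 and 203 FPKM. All 5 phloem genes exceeded 10 FPKM, led by the sucrose carrier SUC2 (59.4, 62.9 and 61.9 FPKM). Of 7 xylem genes 6 reached 1 FPKM and 2 reached 10 FPKM, with a median of 5.603 FPKM, and XCP2, a protease of xylem vessels, was highest with 46.4, 41.2 and 54.5 FPKM. Of 5 guard cell genes 3 reached 10 FPKM, among them KAT1, a potassium channel, at 18.2, 18.3 and 18.3 FPKM.

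For roots, all 8 root hair genes reached 1 FPKM and 4 reached 10 FPKM, with a median of 10.4 FPKM. Among these 4 were the expansins EXPA7 (13.8, 14.4 and 12.5 FPKM) and EXPA18 (17.02, 17.1 and 14.7 FPKM). The endodermal factor SCR had 20.96, 21.1 and 21.5 FPKM. Of the 8 root meristem genes, SCR among them, 4 reached 1 FPKM and 3 reached 10 FPKM. In the root tip PLT1 had 0.97, 0.89 and 1.01 FPKM and WOX5 had 0.87, 0.71 and 0.6 FPKM. Of the 6 genes listed for the shoot meristem 3 reached 1 FPKM and 2 reached 10 FPKM. AS1, highest with 45.8, 46.9 and 43.7 FPKM, is a factor of leaf founder cells, so these counts do not describe the meristem alone. In the shoot tip STM had 1.94, 1.76 and 1.85 FPKM, CLV3 had 0.09, 0.44 and 0.08 FPKM and WUS was listed in no WT file. All 9 stomatal lineage genes reached 1 FPKM, SPCH, which starts the lineage, with 4.54, 4.32 and 4.37 FPKM and MUTE, which acts after it, with 1.03, 1.3 and 0.77 FPKM. Among trichome genes none of 4 reached 10 FPKM, and GL2 was highest with 4.25, 3.76 and 3.13 FPKM.

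Flower genes served as the low end. None of 9 reached 1 FPKM, SEP3 was highest with 0.46, 0.73 and 0.86 FPKM, LFY had 0.14, 0.07 and 0.04 FPKM, and SEP2 was listed in no WT file. The 14 seed genes had a median of 0.768 FPKM. OLEO2, an oil body protein, was highest with 22.7, 23.4 and 26.1 FPKM, and LEC1, an embryo regulator, was listed in no WT file. In all, 59 lists with 658 different genes were read, of which 644 were listed in a WT file, 586 reached 1 FPKM and 14 were in none.

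**Figure D4:**
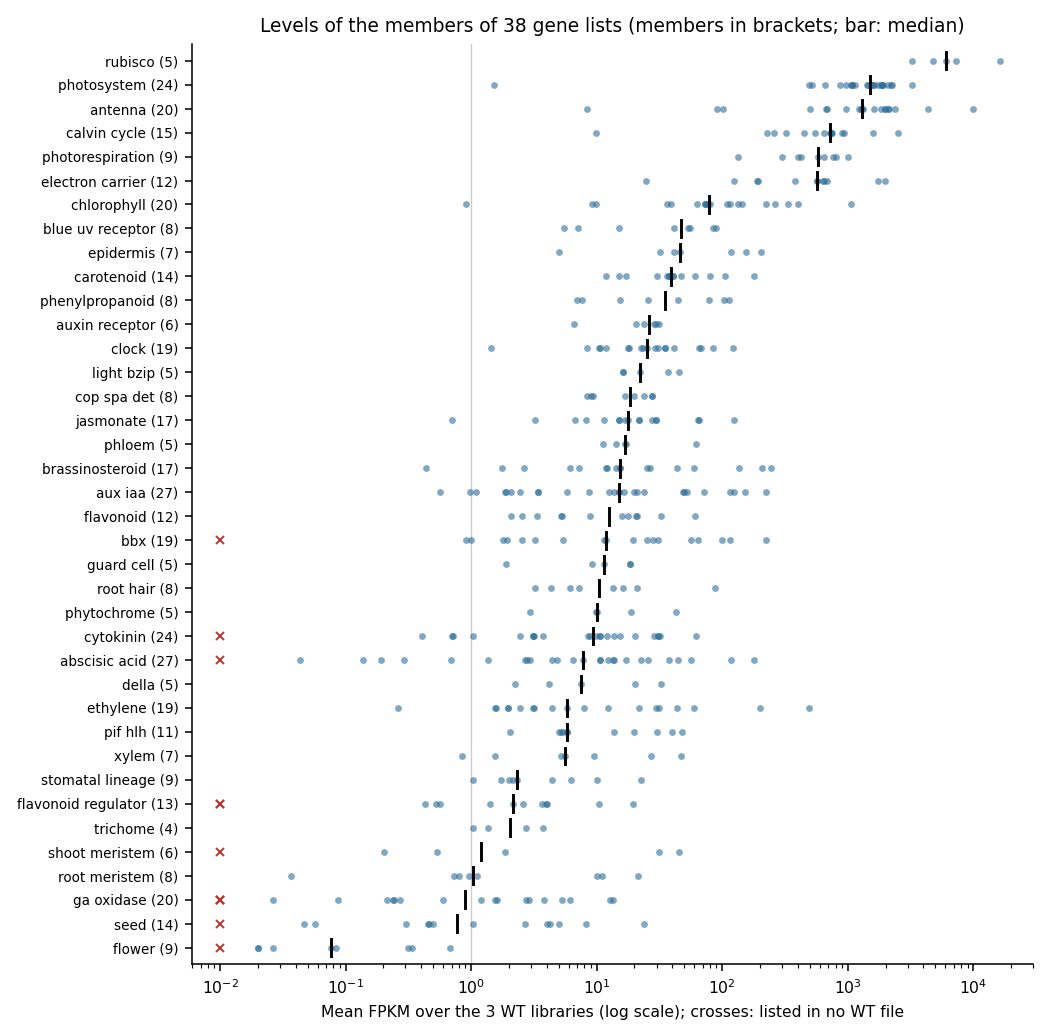
Mean FPKM on a log axis of each member of 38 gene lists, ordered by list median (bar), with crosses at the left for members listed in no WT file. Medians run from 6092 FPKM for Rubisco genes to 0.0767 FPKM for flower genes, and the line marks 1 FPKM.

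The 331 listed ribosomal protein genes made 6.58 ± 0.333% of the summed FPKM with a median of 86.1 FPKM, and none exceeded 658 FPKM. The 101 genes whose annotation begins with histone or names the histone superfamily made 0.556 ± 0.0107%. They include enzymes that act on histones, such as the histone deacetylase HD2C. Aquaporins made 1.02 ± 0.0358%, led by TIP2 (1199, 1194 and 1233 FPKM) of the vacuolar membrane and PIP3 (984, 891 and 957 FPKM) of the plasma membrane. Among actins ACT2 (436, 406 and 414 FPKM) gave 51.5 ± 0.508%, ACT8 gave 25.02 ± 0.963% and ACT7 gave 16.6 ± 0.658%, and the pollen actins ACT4 (0.2, 0.11 and 0.11 FPKM) and ACT12 (0.03, 0 and 0.04 FPKM) were near the listing limit. TUA4 (501, 454 and 481) and TUA6 (487, 427 and 441 FPKM) led the alpha-tubulins and overlapped.

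Enzymes against reactive oxygen were led by CAT3 (722, 639 and 742 FPKM), which gave 61.8 ± 1.303% of the catalases beside CAT2 (37.1 ± 1.29%) and CAT1 (1.06 ± 0.0631%). The iron superoxide dismutase FSD1 had 458, 489.9 and 458 FPKM and exceeded FSD2 by 16.4 ± 0.917 times. Of the glucosinolate-cleaving myrosinases TGG1 (691, 609 and 701 FPKM) gave 93.1 ± 0.165%, and TGG3 was listed in no WT file. NIT1, a nitrilase, had 487, 487 and 479 FPKM and exceeded NIT2 by 26.3 ± 2.498 times. Of genes used as references in PCR work, GAPC2 (787, 835 and 804 FPKM) and UBQ10 (750.0, 724 and 775 FPKM) were high, while PP2AA3 (32.3, 29.4 and 32.3 FPKM) and TIP41 (20.8, 18.1 and 16.9 FPKM) were much lower.

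The spread between libraries was small. Across genes, which are not independent replicates, log2(FPKM + 1) correlated between pairs of libraries at Pearson r of 0.995 to 0.996 over all listed genes and 0.991 to 0.995 over the 10367 genes of at least 10 FPKM. The coefficient of variation (CV, SD over mean) had a median of 0.0519 over the same 10367 genes, and counting error alone would give a median of 0.0258. Counting error came close to the measured spread in low genes and lay far below it in high ones. The medians were 0.130 between 1 and 3 FPKM, with 0.106 from counting, 0.0536 between 10 and 30 FPKM, with 0.0327 from counting, and 0.0574 in the 59 genes above 1000 FPKM, with 0.00389 from counting. Depth thus limits the precision of values below about 10 FPKM, and differences between libraries limit it above. A CV of 0.2 was reached by 88 genes (0.849%) and one of 0.5 by 3.

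Among the 10 largest CVs were those of ATMG00990, a mitochondrial gene (14.8, 57.3 and 0 FPKM; CV 1.24), and of AT2G07751, a nuclear gene (45.8, 0.32 and 68.8 FPKM; CV 0.9096), which were high in opposite libraries. All 308 of the 50-base words of AT2G07751 occur in the mitochondrial genome, and the counts of the pair together were 439, 412 and 506, with a CV of 0.107. Before rounding, these joint counts were whole numbers in 0 of 3 libraries. AT4G16983 (168, 171 and 48.6 FPKM) overlaps AT4G16980 on the other strand. Their joint counts were whole numbers in 3 of 3 libraries, with a CV of 0.0424. For AT1G62515 (47.2, 36.7 and 74.5 FPKM) and AT4G00163 (21.9, 20.5 and 37.99 FPKM) the counts with the neighbouring models AT1G62510 and AT4G00165 were whole numbers in 3 of 3 libraries, with a CV of 0.203 for the first pair and 0.0740 for the second. AT1G21313 (106, 193 and 90.1 FPKM) lies opposite EXT3, a cell wall extensin, and their joint counts were whole in 1 library, with a CV of 0.119. These partners were named after the values were seen. The tolerance for a whole number was 0.015 counts. ATCG00590 and ATCG00065, chloroplast genes with 8 to 40 counts per library, were also among the 10.

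The other 2 of the 10 are GAT1_2.1, annotated as a class I glutamine amidotransferase-like gene, with 9.47, 7.72 and 15.5 FPKM, and AT2G21820, a seed maturation gene, with 7.6, 8.53 and 14.2 FPKM. Both were highest in WT 3. The steadiest genes of at least 10 FPKM were AT5G54540 (43.8, 43.8 and 43.8 FPKM), AT2G36895 (30.1, 30.1 and 30.03 FPKM) and AT1G19600 (28.3, 28.3 and 28.3 FPKM). These 3 CVs, 0.000604, 0.000666 and 0.000706, lay far below the 0.0268, 0.0398 and 0.0318 that counting alone gives. With 3 libraries they do not show these genes to be steadier than others. The 12 PCR reference genes had a median CV of 0.0652, and PP2AA3 had 0.0539. None of them was among the 10 steadiest, which says little for 12 of 10367 genes.

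In some lists most members were highest or lowest in the same library, and those named here were picked for that. Over all 10367 genes, 39.0, 33.9 and 27.2% were highest in WT 1, WT 2 and WT 3, and 22.8, 38.9 and 38.2% were lowest there. Against this, 12 of 14 Calvin cycle genes, 7 of 9 photorespiration genes, 4 of 4 Rubisco small-subunit genes and 6 of 6 flavonoid genes above 10 FPKM were highest in WT 2. Lowest in WT 2 were 6 of 6 alpha-tubulin, 8 of 9 beta-tubulin, 12 of 12 brassinosteroid and 13 of 16 Aux/IAA genes. Highest in WT 3 were, beside the antenna genes, 11 of 18 aquaporin and 8 of 11 B-box genes, and highest in WT 1 were 5 of 6 alpha-tubulin and 8 of 9 beta-tubulin genes.

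The lists of dark-inducible and aliphatic glucosinolate genes were drawn up after their values were seen, as was that of photorespiration, so their counts only describe what they were chosen for. Dark-inducible genes, known to rise when sugar is short, were lowest in WT 2 in 6 of the 6 members above 10 FPKM: SEN1 had 162, 81.3 and 144 FPKM and ASN1, an asparagine synthetase, had 39.04, 24.1 and 43.1 FPKM. Genes of aliphatic glucosinolate synthesis were highest in WT 2 in 4 of the 5 above 10 FPKM: IMD1, of methionine chain elongation, had 15.99, 27.6 and 18.6 FPKM, and CYP83A1 had 8.96, 15.2 and 10.9 FPKM. The libraries are named only by number, and no label tells WT 2 apart from the others.

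WT 3 stood apart in genes of seed storage proteins. The 14 seed genes listed summed to 34.7, 36.2 and 82.5 FPKM, of which the oleosin OLEO2, a protein of oil bodies, held 22.7, 23.4 and 26.1 FPKM. SESA5, a 2S albumin, had 0.06, 0.46 and 14.5 FPKM, CRU3, a cruciferin, had 0.41, 0.29 and 11.4 FPKM, and SESA2 had 0.38, 0.52 and 7.17 FPKM. CRA1, another cruciferin, had 5.13, 5.91 and 13.7 FPKM. OLEO2 was thus closer between libraries than these, and the embryo regulators FUS3 (0.37, 0.23 and 0.31 FPKM) and LEC2 (0.07, 0.04 and 0.03 FPKM) were near 0 in all 3 libraries.

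**Figure D5:**
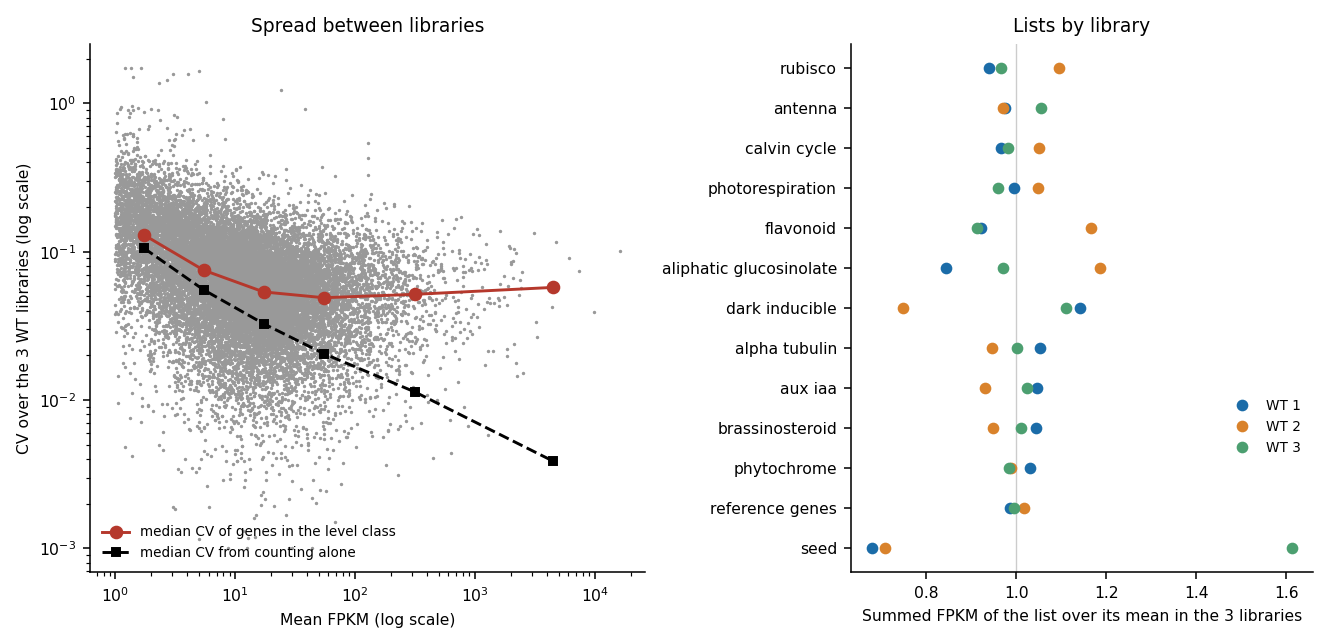
Left, CV over the 3 WT libraries against mean FPKM (both log scales) for each gene of at least 1 FPKM (grey), with the median CV of 6 level classes (red) and the median from counting alone (black, dashed). Right, the summed FPKM of 13 lists in WT 1 (blue), WT 2 (orange) and WT 3 (green) over the list's mean. The red line levels off near 0.05 while the black line falls to 0.00389, and seed genes in WT 3 lie farthest from 1.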

How the data were processed

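Transcripts of 3 WT libraries were described, with no comparison between genotypes. Per the submitters' processing notes the authors used HISAT, Bowtie2 2.2.5, RSEM 1.2.12 and the TAIR10 genome. HISAT's version and the roles of the tools are not stated there. The deposited files give expected counts per gene, 78.3 to 78.5% of them whole, and FPKM that the authors scaled by transcript length and library size. They list genes from 0.01 FPKM, and a missing gene was set to 0. Shares are of summed FPKM (673206 to 681658 per library). Oligo(dT) selection leaves few chloroplast transcripts, at 0.411 to 0.471% of summed FPKM, so organelle levels are not read as abundance.

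Gene lists, families and members were chosen with earlier results of these data known. Named genes are the 40 highest, the list and family members, and the 10 largest and 10 smallest CVs among genes of at least 10 FPKM. The CV from counting assumes Poisson counts at the mean expected count. Shared sequence was measured by 50-base words found in other gene models. Promoter windows of 250 bases and coordinates come from RefSeq TAIR10.1. Scripts used Python 3.11.15, numpy 2.4.6, pandas 2.3.3 and matplotlib 3.10.9, and the spread measures were tested on simulated data. The alternatives tried were counts per 1e6 with no length correction, other level minimums, pseudocount and count minimum, TMM scaling and leaving out each library. Also tried were FPKM rescaled to a sum of 1e6, the median over libraries, leaving out organelle genes and only genes listed in all 3 files.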

Additional observations from a re-analysis of the deposited data

How the results depend on the processing

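Over 10 results 95 values were computed under other settings, and 86 moved by less than the spread between libraries or, for counts, by less than 1.5 times. Some of the 86 could not move. Rescaling each library to a sum of 1e6 leaves shares and ratios unchanged by construction. Leaving out other genes cannot change RBCS1A's share of its family or the ratios of PHYB to PHYA and of HYH to HY5. Without division by gene length, in counts per 1e6 counts, the top 100 genes made 21.1% in place of 25.6%, the light-reaction and Rubisco genes 12.9% in place of 17.2%, RBCS1A 50.2% of its family in place of 47.2%, HYH was 1.52 times HY5 in place of 2.297 times, and 1157 genes in place of 763 made 50% of the sum. The median CV of 0.0519 became 0.0645 with a minimum of 1 FPKM and 0.0370 to 0.0465 with 1 library left out, lowest without WT 2. A CV of 2 values has a lower median than one of 3 by its construction. TMM factors lay between 0.988 and 1.01. No paired analysis was possible because the text tests no difference between groups. Depth limits genes below about 10 FPKM, and a gene listed in no file may lie under 0.01 FPKM. Overlapping models, near-identical copies and unstated strandedness limit the genes named as uncertain.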
